A study of Homo sapiens with 24 samples.

Results

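The miRNAs described here carry the numbers miR-6715 to miR-6895, a block of late-named human miRNAs of which most lie in introns. They were chosen by name and by total abundance. A mature miRNA with a number in this range was taken if its counts summed to at least 24 over all 24 libraries, and miR-6821-5p was left out by name. The table holds 353 mature miRNAs with these numbers, and 131 of them, out of 2656 mature miRNAs in all, were members. A further 158 had counts below the sum and 63 had no count in any library. The members come from 104 hairpin numbers, and 76 are 5p arms and 55 are 3p arms. Just inside the limit were miR-6815-3p and miR-6893-5p, with 24 counts each, and just outside were miR-6747-5p and miR-6780b-3p, with 23 each. MiR-6821-5p had 440 counts.

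The libraries were made from total RNA of the established cell line OV90, derived from an epithelial ovarian cancer, which carried an inducible negative control shRNA (shNeg) or an shRNA against RELA or RELB, transcription factors of the NF-κB family. Cells grew either adherent in RPMI medium with tetracycline-free fetal calf serum, or as spheroids on ultra-low attachment plastic in DMEM-F12 with serum replacement, insulin-transferrin-selenium, albumin, EGF and FGF. This gave 6 groups of 4 libraries, and all of them, shNeg included, received doxycycline at 1 µg/ml for 72 h. The labels call shNeg wild type, and they do not say whether replicates were separate cultures, so p-values measure only the spread between these libraries. The medium changes together with attachment, so they cannot be told apart. Small RNA libraries do not read RELA or RELB mRNA, so the extent of silencing is not seen here.

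A miRNA is cut from a hairpin whose stem yields a 5p and a 3p strand, and the loaded strand silences mRNAs that pair with its seed. Most hairpins are released from their transcript by Drosha. A mirtron is instead an intron, or the end of an intron, that folds into a hairpin after splicing and debranching, and it is then cut by Dicer without Drosha. The 3′ end of such a hairpin lies at the splice acceptor, whose pyrimidine tract and final AG become the 3p strand, and the 5p strand that pairs with it is rich in purines.

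The mature sequences of the members on which the results turn are printed from RefSeq (GRCh38.p14), 5′ to 3′, with the seed, bases 2 to 8, in capitals. The first 8 are 5p strands, and the last 5 are 3p strands, so that the G-rich and the C-rich strands can be compared.
miR-6730-5p: aGAAAGGUggagggguugucaga
miR-6734-5p: uUGAGGGGagaaugagguggaga
miR-6740-5p: aGUUUGGGauggagagaggaga
miR-6763-5p: cUGGGGAGuggcuggggag
miR-6779-5p: cUGGGAGGggcuggguuuggc
miR-6796-5p: uUGUGGGGuuggagagcuggcug
miR-6799-5p: gGGGAGGUgugcagggcugg
miR-6741-5p: gUGGGUGCuggugggagccgug
miR-6741-3p: uCGGCUCUcucccucacccuag
miR-6797-3p: uGCAUGACccuucccuccccac
miR-6803-3p: uCCCUCGCcuucucacccucag
miR-6732-3p: uAACCCUGuccucucccucccag
miR-6791-3p: uGCCUCCUuggucuccggcag

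Sequences were found for 113 of the 131 members. The 5p strands with a sequence had a median G content of 47.8% and a median C content of 13%. The 3p strands were their mirror image, with a median of 15% G and 42.3% C. GC content had the same median in both arms, 60.9%. Of the 48 3p strands, 31 (64.6%) ended in AG, as against 20.1% of the 3p arms that were not members. A run of GGGG stood in 33 of the 65 5p strands (50.8%), as against 14.5% of the other 5p arms. Few members shared a seed. MiR-6779-5p and miR-6780a-5p both had UGGGAGG, miR-6777-5p and miR-6889-5p had CGGGGAG, and miR-6815-5p and miR-6865-5p had AGGUGGC.

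The hairpins were placed against GENCODE release 44 introns on GRCh38. Of 86 member hairpins with coordinates, 81 (94.2%) lay in an intron on their own strand, 19 of them also in an exon of another transcript. The 3′ end of 77 hairpins (89.5%) lay within 3 bases of a splice acceptor. This was so for 59 of 1285 hairpins (4.59%) with other numbers. Only 2 member hairpins also reached the donor and so filled their intron. The term mirtron-rich therefore fits the set by position, mostly in the form of hairpins at the 3′ end of a longer intron, and the introns had a median length of 278 bases. Processing by Drosha or Dicer was not measured.

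Among the members printed above, miR-6734-5p (chr1:43364688-43364710, minus strand) lies in a 90-base intron of ELOVL1, which encodes a fatty acid elongase. MiR-6763-5p (chr12:132582002-132582020, plus strand) lies in an intron of FBRSL1, and miR-6799-5p (chr19:49791871-49791890, plus strand) in an intron of AP2A1, a clathrin adaptor gene. MiR-6740-5p (chr1:202003129-202003150, plus strand) lies in an intron of RNPEP, an aminopeptidase gene, miR-6779-5p (chr17:38914984-38915004, plus strand) in one of LASP1, an actin-binding protein gene, and miR-6796-5p (chr19:40369851-40369873, plus strand) in one of PLD3. Of the 3p strands, miR-6797-3p (chr19:41869675-41869696, plus strand) lies in an intron of the ribosomal protein gene RPS19, miR-6803-3p (chr19:55245186-55245207, minus strand) in a 79-base intron of the phosphatase subunit gene PPP6R1, miR-6732-3p (chr1:37480267-37480289, plus strand) in an intron of the RNase gene ZC3H12A, and miR-6791-3p (chr19:6736712-6736732, minus strand) in an intron of GPR108. MiR-6730 and miR-6741 are on chromosome 1. An exception to the rule of position was miR-6724-5p (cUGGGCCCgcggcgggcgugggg), one of whose 2 hairpins in the table, at chr21:8249515-8249537 for the mature strand, lay in no intron or exon on its strand.

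Total counts ran from 3797175 to 8283549 in the adherent libraries and from 959141 to 3580931 in the spheroid libraries. Spheroid shNeg replicate 1 stood apart, with counts on 432 miRNAs where the other libraries of its group had 813 to 885, so the main results that use it are also given without it. The epithelial markers miR-200c-3p (1641 to 15661 CPM), miR-205-5p (453.3 to 2621 CPM) and miR-141-3p (26.4 to 285.5 CPM) were present in every library, as fits an epithelial line. The others of the list were low in some or all libraries. MiR-200a-3p was at 0.764 to 12.2 CPM, miR-200b-3p at 0.733 to 40.6 CPM and miR-429 at most at 3.69 CPM. A list of 7 blood cell miRNAs was higher in the spheroid libraries, at a summed 431.4 to 725.3 CPM with shNeg, 72.1 to 117.0 with shRELA and 163.7 to 226.3 with shRELB, as against 24.1 to 57 in the adherent libraries. This sum was mostly miR-486-5p, while miR-144-3p and miR-142-5p had no count in any spheroid library and miR-451a was at most 6.29 CPM. A list of 3 fibroblast and muscle miRNAs summed to 226.5 to 256.5 CPM in adherent shNeg and 54.9 to 67.4 in spheroid shNeg. It was lower with shRELA, at 23 to 45.9 CPM adherent and 12.6 to 23.6 in spheroids, and was 174.0 to 195.9 and 72.7 to 113.5 with shRELB. The epithelial list of 6 summed to 4853 to 5073 CPM in adherent and 3222 to 4629 in spheroid shNeg, 2486 to 3449 and 4489 to 8000 with shRELA, and 7799 to 9637 and 7911 to 16336 with shRELB. The part of these miRNAs in the results below was not tested.

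All members were low. Their means over the 24 libraries ran from 0.22 to 13.2 counts per 1000000 (CPM, with library sizes scaled by the TMM method), with a median of 1, and only 5 reached 5 CPM. The highest count of a member in any library was 177, for miR-6724-5p in spheroid shNeg replicate 1, and 56 members never passed 10 counts. Where no count was seen, up to 3 counts remain possible, which with TMM scaling is 0.495 to 0.8 CPM in an adherent library and 0.86 to 2.29 CPM in a spheroid library, and this limit covers counting error only. Differential expression was tested on 107 of the members, those that reached 1 CPM in 4 or more libraries. Of these, 65 were at 1 CPM in fewer than 4 adherent libraries, 50 of them 5p arms, and so passed largely through the spheroid libraries. Counts and correlations over tested members are therefore descriptions. The direction of the mean between cultures is also given over all 131.

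Spheroid libraries held a larger share of member counts, and the 5p arms held most of the difference. The 5p members summed to 42.6 ± 6.55 CPM of the library total (SD, n = 4) in adherent shNeg, 42.8 ± 8.54 in adherent shRELA and 57.6 ± 3.36 in adherent shRELB. In spheroids they summed to 495.9 ± 294.4 CPM with shNeg (356.2 ± 113.3 without replicate 1), 144.9 ± 4.22 with shRELA and 216.7 ± 42.5 with shRELB. No spheroid library overlapped the adherent libraries of the same shRNA, and the ratio of means was 11.6 for shNeg (8.36 without replicate 1), 3.38 for shRELA and 3.76 for shRELB. The 3p members summed to 68.8 ± 9.15, 60.6 ± 17.6 and 70.4 ± 7.65 CPM in adherent shNeg, shRELA and shRELB. In spheroids they summed to 104.9 ± 5.13, 51.5 ± 14 and 48.6 ± 17.1 CPM. Their ratio of spheroid to adherent means was 1.52 for shNeg (1.54 without replicate 1), 0.85 for shRELA and 0.69 for shRELB, so it was above 1 with shNeg alone, and with TMM scaling those shNeg groups overlapped, at 77.1 to 90.9 against 57.3 to 87.5 CPM.

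**Figure D1:**
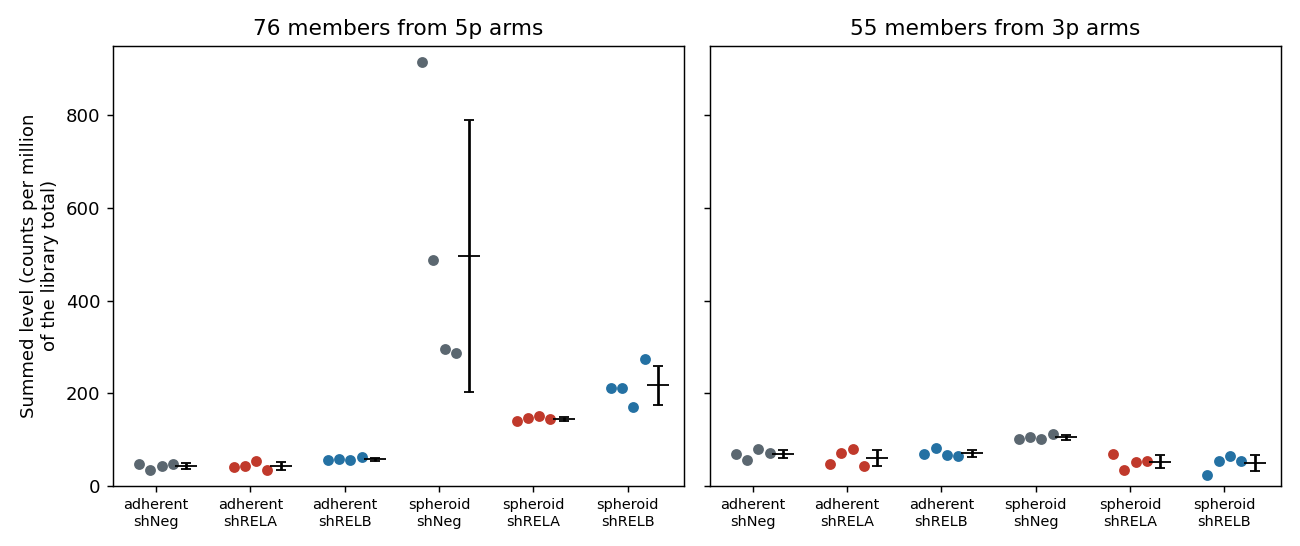
Summed level of the 76 5p members (left) and the 55 3p members (right) in each library, in CPM of the library total. Points are libraries, and the bar beside them is the mean and SD of 4. The 5p sum lay at 33.2 to 61.7 CPM in all adherent libraries and at 139.8 CPM or more in all spheroid libraries, with spheroid shNeg replicate 1 at 915.1.

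The arms thus changed places within the set. The 5p arms held 38.2% ± 2.45 of the member counts in adherent shNeg (SD, n = 4), 41.9% ± 3.2 in shRELA and 45.1% ± 2.87 in shRELB. In spheroids they held 79.7% ± 8.15 (76.2% without replicate 1 of shNeg), 74% ± 5.69 and 81.5% ± 7.15. The lowest spheroid library, at 67.2%, lay above the highest adherent one, at 48.9%. The same was seen in detection at equal depth. At 959141 counts, the smallest total, 24.4 to 30.2 of the 76 5p members would be expected with a count in the adherent groups and 47.9 to 52.6 in the spheroid groups. Without replicate 1, spheroid shNeg would have 55.4. For 3p members the numbers were 27 to 29.7 of 55 in the adherent groups, 23.1 and 21.1 in spheroid shRELA and shRELB, and 26 in spheroid shNeg, or 32 without replicate 1, so the direction of the 3p difference with shNeg rested on that library. As sequenced, with the deeper adherent libraries, 86 to 115 members had a count in an adherent library and 40 to 108 in a spheroid library.

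Between spheroid and adherent shNeg, 34 members were called higher and 1 lower by edgeR's quasi-likelihood test, with a Benjamini-Hochberg FDR below 0.01 over all 905 miRNAs tested and an absolute fold change above 2. Over all miRNAs tested, 21.3% were called higher and 20.9% lower. Of the 34, 31 were 5p arms, out of 68 5p arms tested, and 3 were 3p arms, out of 39. Of the same 34, 26 reached 1 CPM in fewer than 4 adherent libraries, and so passed the filter largely through the spheroid libraries. Without replicate 1 of spheroid shNeg, 34 were again called higher, 32 of them 5p arms, and 27 were shared. The groups separated upwards, without overlap, for 19 of the 107 members tested (17.8%) and for 16.9% of all miRNAs tested, which is about the same share. They separated downwards for 7 of the 107 (6.54%), as against 30.6% of all miRNAs tested. The median log2 fold change was 2.81 for 5p members (2.64 with members without an adherent count set to their lower bound), -0.01 for 3p members and -0.26 for all miRNAs tested. With library totals in place of TMM these medians were 3.27, 0.44 and 0.17, so the sign of the 3p median depended on the scaling and that of the 5p median did not. Without replicate 1 of spheroid shNeg they were 2.81 for 5p members, 0.08 for 3p members and -0.17 for all, so that the 3p median changed sign again. Over all 131 members, tested or not, the mean was higher in spheroids for 63 of 76 5p arms (62 without replicate 1) and 25 of 55 3p arms (25).

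With shRELA, 15 members were called higher in spheroids than in adherent culture and 2 lower, as against 16.8% and 15.8% of all miRNAs tested. The groups separated upwards without overlap for 21 of the 107 members tested (19.6%), as against 21.3% of all miRNAs. With shRELB, 17 were called higher and 3 lower, as against 13.6% and 11.4%, and the groups separated upwards for 21 of the 107 (19.6%), as against 19.2%. These upward shares too were near those of all miRNAs, while the shares of members called lower, 1.87% and 2.8%, were below. The groups separated downwards for 5.61% of the members tested with shRELA, as against 25% of all miRNAs. With shRELB it was 7.48%, as against 22.3%. The part of low counts in this was not tested. Every member called higher with either knockdown was a 5p arm, and every member called lower was a 3p arm. Leaving spheroid shNeg replicate 1 out of the fit raised the number called higher to 21 with shRELA and 27 with shRELB, 1 of each being a 3p arm. The 3 culture comparisons use separate libraries, and 9 members were called higher in all of them, namely the 5p arms of miR-6721, miR-6730, miR-6734, miR-6740, miR-6763, miR-6777, miR-6788, miR-6810 and miR-6848. Some of these calls depended on the settings. Of the 17 to 19 alternative fits of each, miR-6848-5p was called in 11 with shRELA and 10 with shRELB, miR-6740-5p in 15 and 10, and miR-6763-5p in 7 with shRELA, while miR-6730-5p and miR-6734-5p were called in all fits with every shRNA. Only miR-6797-3p was called lower in all 3 comparisons. Over all members, the mean was higher in spheroids for 68 of the 76 5p arms with shRELA and 70 with shRELB, and for 23 and 21 of the 55 3p arms.

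MiR-6730-5p was at 0.83, 1.07, 1.61 and 2.75 CPM in adherent shNeg and at 47.7, 47.3, 26.2 and 30.2 CPM in spheroid shNeg. It was at 1.49 to 1.91 CPM in adherent shRELA and 6.46 to 12.1 in spheroid shRELA, and at 1.4 to 2.68 CPM in adherent shRELB and 14 to 25.3 in spheroid shRELB. All 12 spheroid libraries lay above all 12 adherent ones, and among spheroids the 4 shNeg libraries were the highest. The log2 fold change between cultures was 4.54 ± 0.39 (SE) with shNeg (FDR 9.8e-12, edgeR's quasi-likelihood test; 4.40 without replicate 1), 2.38 ± 0.39 with shRELA and 3.32 ± 0.38 with shRELB.

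MiR-6734-5p behaved alike, with 1.66, 0.533, 1.61 and 2.06 CPM in adherent shNeg and 43.3, 44.3, 30.3 and 15.4 CPM in spheroid shNeg. It was at 1.99 to 2.67 CPM in adherent shRELA and 8.5 to 15.2 in spheroid shRELA, and at 1.37 to 4.44 CPM in adherent shRELB and 17 to 22.4 in spheroid shRELB. No spheroid library overlapped an adherent one. Between cultures it changed by 4.42 ± 0.42 log2 units with shNeg (FDR 7.31e-11, edgeR's quasi-likelihood test; 4.26 without replicate 1), 2.26 ± 0.39 with shRELA and 2.49 ± 0.38 with shRELB.

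MiR-6763-5p was nearly absent in adherent shNeg, with 1, 0, 5 and 3 counts, or 0.166, 0, 0.897 and 0.516 CPM. In spheroid shNeg it was at 48.4, 17.6, 10.3 and 11.2 CPM, so that replicate 1 was far above the others but all 4 were above every adherent library. The log2 fold change was 5.59 ± 0.65 (FDR 5.89e-09, edgeR's quasi-likelihood test), or 4.84 without replicate 1. It was 1.98 ± 0.62 with shRELA and 3.36 ± 0.68 with shRELB.

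MiR-6740-5p had 1 count in each adherent shNeg library, or 0.166 to 0.267 CPM, and was at 31.5, 15.3, 10.3 and 8.42 CPM in spheroid shNeg. Its groups did not overlap, and the log2 fold change was 6.19 ± 0.83 (FDR 1.04e-07, edgeR's quasi-likelihood test), or 5.67 without replicate 1. With shRELA and shRELB it was 2.97 ± 0.78 and 2.61 ± 0.76. For miR-6799-5p and miR-6779-5p the adherent shNeg libraries held 2 counts and 1 count in all, so their folds are given with counting intervals. MiR-6799-5p was at 74.8, 10.7, 4.62 and 3.51 CPM in spheroid shNeg, and the ratio to adherent shNeg was 227.6 (exact 95% interval 61.8 to 1899), or 63.3 (16 to 548.3) without replicate 1. MiR-6779-5p was at 24.9, 4.58, 2.05 and 6.32 CPM, and its ratio was 185.6 (31.9 to 7467), or 85.9 (13.7 to 3569) without replicate 1. In both, replicate 1 held most of the spheroid counts, and both were still called without it.

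MiR-6721-5p was another of the members called with every shRNA, and its hairpin overlapped an exon of AGPAT1 and lay in no intron. It had 4 counts over the adherent shNeg libraries, 2 over those of shRELA and 2 over those of shRELB. In spheroids it was at 14.7, 13.7, 6.16 and 2.81 CPM with shNeg, at 2.34, 0, 3.58 and 3.8 with shRELA and at 1.58, 2.99, 5.58 and 10.3 with shRELB. The spheroid groups overlapped each other, and 1 shRELA library had no count. Between cultures the log2 fold change was 5.36 ± 0.90 with shNeg (FDR 5.45e-06, edgeR's quasi-likelihood test; 5.06 without replicate 1), and the ratio was 29.2 (exact 95% interval 7.21 to 255.3) with shRELA and 59.9 (15.9 to 506.2) with shRELB. MiR-6894-5p had no count in adherent shRELA and was at 0.38 to 2.81 CPM in spheroid shRELA, at least 2.2-fold higher, against a floor of 3 counts per library. MiR-6833-5p had no count in adherent shRELB and was at 0.287 to 3.32 CPM in spheroid shRELB, at least 3.12-fold higher.

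MiR-6797-3p, from the RPS19 intron, went the other way. It was at 5.8, 3.2, 5.74 and 7.22 CPM in adherent shNeg, 3.3 to 7.62 in adherent shRELA and 3.62 to 5.99 in adherent shRELB. In spheroids its counts were 0, 2, 2 and 0 with shNeg, 2, 1, 0 and 0 with shRELA, and 0, 0, 0 and 2 with shRELB. No spheroid library reached an adherent one. Between cultures the log2 fold change with shNeg was -3.01 ± 0.72 (FDR 0.000626, edgeR's quasi-likelihood test; -2.66 without replicate 1). With shRELA and shRELB, where the spheroid libraries held 3 and 2 counts in all, the ratio of spheroid to adherent was 0.0645 (exact 95% interval 0.0131 to 0.193) and 0.037 (0.00442 to 0.137).

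MiR-6732-3p had 7 to 9 counts in each adherent shNeg library and 0, 4, 2 and 1 in spheroid shNeg, which overlapped in CPM and gave no call (log2 fold change -0.46 ± 0.75, FDR 0.62, edgeR's quasi-likelihood test). With shRELA and with shRELB it had a single count in the 4 spheroid libraries, against 6 to 16 and 12 to 18 counts per adherent library, and was called lower in both. The ratios were 0.059 (exact 95% interval 0.00146 to 0.347) and 0.0317 (0.00079 to 0.183).

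**Figure D2:**
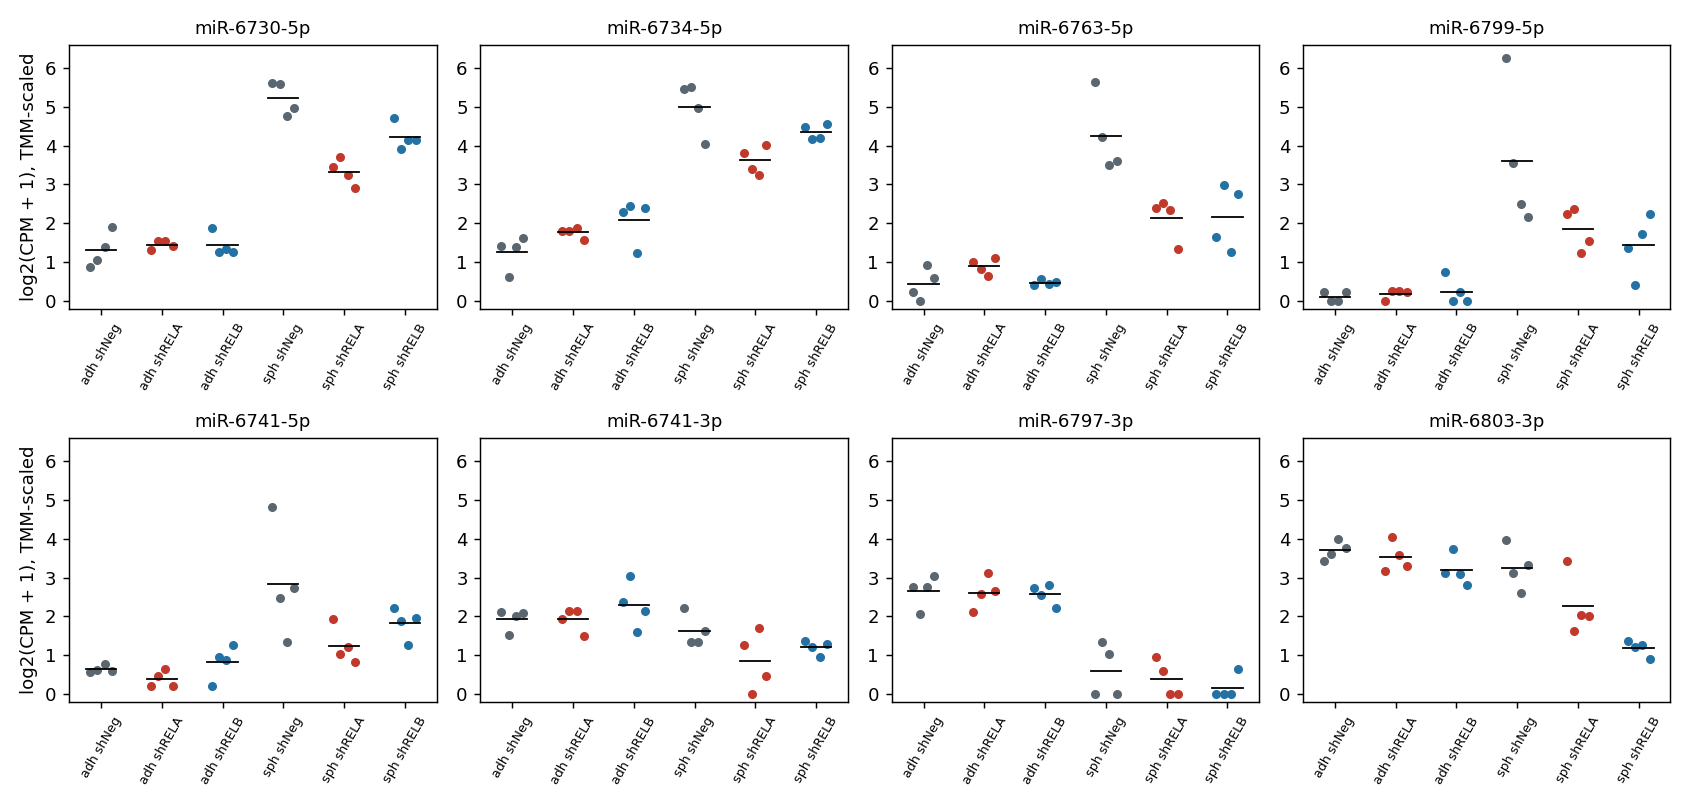
Levels of 8 members in each library as log2(CPM + 1) with TMM scaling (adh, adherent; sph, spheroid). Points are libraries and lines are group means of 4. The first 5 panels are 5p strands, all called higher in spheroid than in adherent shNeg, and the last 3 are 3p strands, of which miR-6797-3p was called lower in spheroids with all 3 shRNAs.

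Both arms of a hairpin come from 1 precursor, so the pair can be compared within a library. Both arms were members for 25 hairpins, and both were tested for 15 of these. The filter admitted many 5p arms largely through the spheroid libraries, so the pair counts are descriptions. Between spheroid and adherent culture, the log2 fold change of the 5p arm was higher than that of the 3p arm in 13 of 15 pairs with shNeg (12 without replicate 1), 12 with shRELA and 13 with shRELB. Among 196 other pairs the share was 54.1%, 59.7% and 53.1%. The median difference between the arms was 2.98, 2.44 and 2.26 log2 units in the member pairs and 0.29, 0.4 and 0.14 in the other pairs. Without replicate 1 the shNeg medians were 2.97 and 0.22.

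MiR-6741 shows this in counts. Its 3p arm was the more abundant in adherent shNeg, at 3.32, 1.87, 3.05 and 3.27 CPM, with the 5p arm at 0.497, 0.533, 0.717 and 0.516 CPM. In spheroid shNeg the 5p arm was at 27.1, 4.58, 1.54 and 5.61 CPM and the 3p arm at 3.67, 1.53, 1.54 and 2.11 CPM. The 5p arm was above the 3p arm in 3 of these 4 libraries and level with it in replicate 3. The 5p arm was called higher (log2 fold change 4.0 ± 0.73, FDR 1.71e-05, edgeR's quasi-likelihood test; 2.68 without replicate 1), and the 3p arm was not called (-0.41 ± 0.59, FDR 0.566). Of the summed counts of this hairpin, the 5p arm held 16% in adherent shNeg and 80.6% in spheroid shNeg (68% without replicate 1), 9.86% and 59.1% with shRELA, and 16.7% and 66.7% with shRELB.

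The share of the 5p arm was 13.3% in adherent and 96.3% in spheroid shNeg for miR-6799 (84.8% without replicate 1). It was 68% and 95.7% for miR-6730, 68.8% and 97.5% for miR-6734, and 72.7% and 93.6% for miR-6735. These shares rest on few counts of the minor arm, for example 13 3p counts of miR-6799 over the 4 adherent shNeg libraries. With shRELA the 5p share of miR-6730 was much closer between the cultures, at 81.2% and 84.2%.

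**Figure D3:**
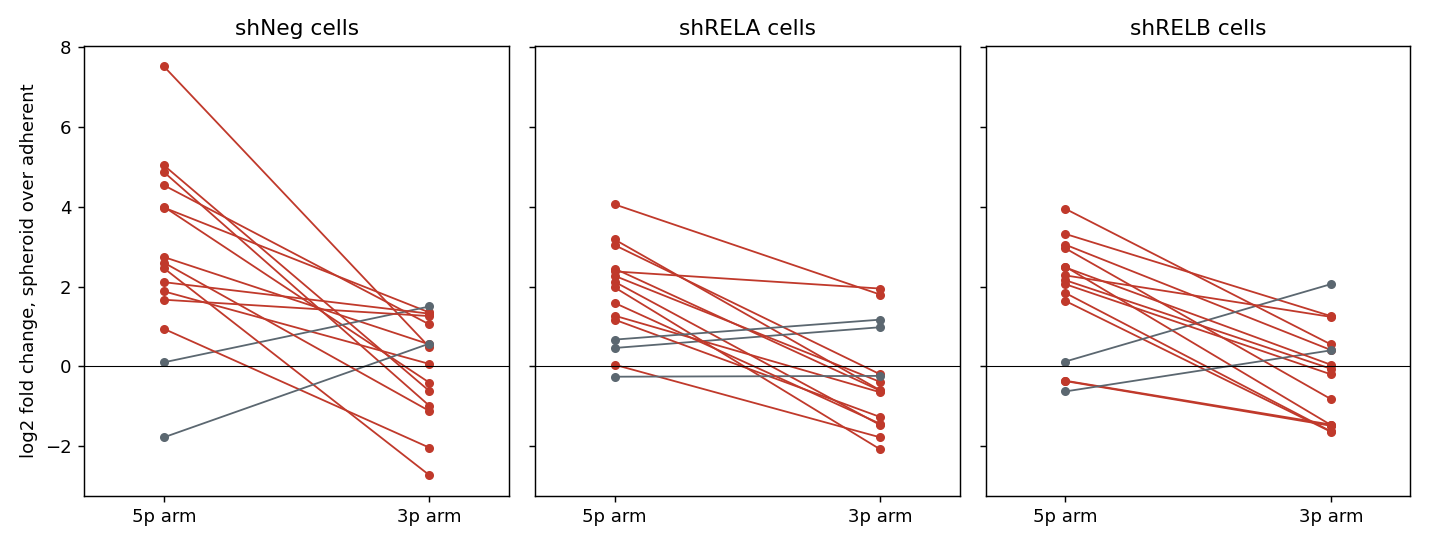
Log2 fold change of spheroid over adherent culture for the 5p and the 3p arm of 15 hairpins with both arms tested, for each shRNA. Lines join the arms of 1 hairpin and are red where the 5p arm changed more in the upward direction, which was so for 13, 12 and 13 hairpins.

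Base content was compared with the change, a description chosen after the arms had been seen to differ. It covers only tested members, many of which passed the filter largely through the spheroid libraries. Across the 94 tested members with a sequence, the log2 fold change of spheroid over adherent shNeg had a Spearman correlation of 0.75 with G content, -0.65 with C content and 0.11 with GC content. Within the 60 5p members the correlation with G content was 0.63, and within the 34 3p members it was 0.53. Without replicate 1 of spheroid shNeg these correlations were 0.72 over 93 members, 0.55 over 59 5p members and 0.54 over 34 3p members. Across 701 miRNAs that were not members, the correlation was 0.49 with G content, 0.01 with C content and 0.56 with GC content. The points of each correlation share the same 8 libraries. With shRELA and shRELB the correlation with G content was 0.64 and 0.75 over the members and 0.52 and 0.50 over the others.

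The relation with G content was therefore also present outside the set, while with shNeg that with C content was not. The shares below cover only miRNAs that passed the filter on low counts. Of the 51 tested members with at least 40% G, 28 (54.9%) were called higher in spheroid shNeg, and of 146 other miRNAs with at least 40% G, 81 (55.5%) were. Their median log2 fold changes were 3.49 and 2.54. Without replicate 1 of spheroid shNeg, 56% and 53.8% were called higher. Of 8 tested arms of mirtrons with earlier numbers, such as miR-877 and miR-1224, all 4 5p arms were called higher, while of 4 3p arms 1 was called higher and 1 lower. Spheroid libraries were also the shallower ones, and the part of depth in this was not tested.

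**Figure D4:**
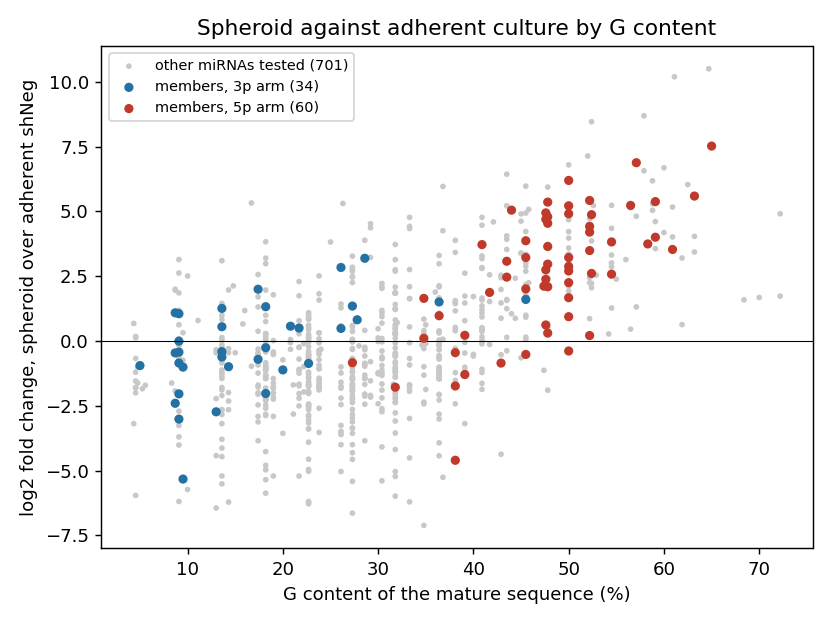
Log2 fold change of spheroid over adherent shNeg against the G content of the mature sequence, for 60 5p members (red), 34 3p members (blue) and 701 other tested miRNAs (grey). Most red points lie above 40% G and above 0, and grey points of the same G content lie there too.

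Next, RELA or RELB knockdown was compared with shNeg in each culture. In adherent conditions no member was called with shRELA, as against 3.76% of all miRNAs tested, and 2 members (1.87%) had an unadjusted p below 0.05, as against 18.1% of all miRNAs tested. With shRELB in adherent conditions none was called either, as against 7.07%, and 4 (3.74%) had an unadjusted p below 0.05, as against 24.8%. Of the 107 members tested, 65 reached 1 CPM in fewer than 4 adherent libraries, and 29 of these in none. The other 42 reached it in at least 4 adherent libraries. The part of low counts in the absence of calls was not tested. DESeq2 called 0 members with shRELA and 1 with shRELB. The 1 was miR-6718-5p, named after its values were seen, which was at 4.48, 2.4, 5.38 and 3.61 CPM with shNeg and at 1.17, 0.702, 0.514 and 0.805 CPM with shRELB. Its groups did not overlap, and the log2 fold change of -2.27 ± 0.62 had an FDR of 0.0116 by edgeR's quasi-likelihood test, just short of the threshold, or 0.00162 without spheroid shNeg replicate 1.

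In spheroid conditions 7 members were called lower with shRELA, as against 7.62% of all miRNAs tested, and none higher, as against 7.51%. The groups separated downwards without overlap for 8 of the 107 members tested (7.48%), as against 9.17% of all miRNAs tested, so neither share stood above the background. All 7 were 5p arms, those of miR-6724, miR-6730, miR-6734, miR-6741, miR-6763, miR-6796 and miR-6799. Of the tested members with at least 40% G, 13.7% were called lower, as against 17.1% of other tested miRNAs with at least 40% G. The summed 5p level was lower than with shNeg in every library, with a ratio of means of 0.292, or 0.407 without shNeg replicate 1. The summed 3p level was lower too, also without overlap, with a ratio of 0.491, or 0.486 without that library. These ratios are of library totals. With TMM scaling the groups still did not overlap, but the means lay closer. The 5p means were then 151.9 CPM with shRELA and 408.6 with shNeg, or 271.7 without that library. The 3p means were 54.2 and 83.8 CPM, or 81.4 for shNeg without that library. Without that library 3 remained called, miR-6730-5p, miR-6734-5p and miR-6763-5p, and 1 member was called in a fit of shRELA and shNeg spheroids alone.

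MiR-6730-5p was at 26.2 to 47.7 CPM in spheroid shNeg, as given above, and at 9.84, 12.1, 8.5 and 6.46 CPM with shRELA. Every shRELA library lay below every shNeg library, and the log2 fold change was -2.04 ± 0.35 (FDR 3.14e-05, edgeR's quasi-likelihood test), or -1.91 without shNeg replicate 1. With shRELB it was at 25.3, 14, 16.7 and 16.6 CPM, also below every shNeg library, but the change of -1.06 ± 0.33 had an FDR of 0.016 and was not called. MiR-6734-5p was at 13.1, 9.45, 8.5 and 15.2 CPM with shRELA, just below the lowest shNeg library at 15.4, with a change of -1.51 ± 0.36 (FDR 0.00167). With shRELB it was at 21.1, 17, 17.2 and 22.4 CPM, which overlapped shNeg, and its change of -0.77 ± 0.35 had an FDR of 0.101.

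MiR-6763-5p was at 4.22, 4.73, 4.03 and 1.52 CPM with shRELA and at 2.11, 6.98, 1.39 and 5.74 CPM with shRELB, all below the lowest shNeg library at 10.3. The log2 fold changes were -2.59 ± 0.55 (FDR 0.000476, edgeR's quasi-likelihood test) and -2.35 ± 0.53 (FDR 0.00103). Without shNeg replicate 1 they were -1.85 and -1.59, with FDRs of 0.00739 and 0.0172, so the call with shRELB was lost. The 2 knockdown comparisons use the same 4 shNeg libraries and are not independent of each other.

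MiR-6796-5p was at 28.6, 5.35, 7.69 and 4.91 CPM with shNeg and at 2.34, 0.525, 2.24 and 0.38 CPM with shRELA. The groups did not overlap, with a log2 fold change of -3.06 ± 0.70 (FDR 0.00108, edgeR's quasi-likelihood test), and without replicate 1 the change of -2.13 had an FDR of 0.023. For miR-6724-5p, miR-6741-5p and miR-6799-5p a single library decided the call. MiR-6724-5p was at 129.8 CPM in shNeg replicate 1 and at 22.9, 9.75 and 8.42 in the others, against 7.97 to 15.7 with shRELA. Its change went from -2.0 to -0.35 when that library was left out, that of miR-6799-5p from -3.06 to -1.16 and that of miR-6741-5p from -2.67 to -1.35, and none of the 3 was then called.

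With shRELB, 5 members were called lower in spheroids, as against 6.08% of all miRNAs tested, and none higher, as against 7.29%. The groups separated downwards for 4 of the 107 members tested (3.74%), as against 5.41% of all miRNAs tested, and again neither share stood above the background. They were miR-6763-5p, miR-6799-5p, miR-6788-3p, miR-6791-3p and miR-6803-3p, of which miR-6788-3p was named after its values were seen. Without shNeg replicate 1 only miR-6803-3p remained called, and none was called in a fit of shRELB and shNeg spheroids alone. In CPM of the library total, both summed levels were below those of shNeg without overlap. The ratio of means was 0.437 for 5p members (0.608 without shNeg replicate 1) and 0.464 for 3p members (0.459). With TMM scaling the 3p sums still did not overlap, but the 5p sums did. The latter were at 157.6 to 281.0 CPM with shRELB and 219.0 to 819.2 with shNeg. Their means were 210.1 CPM with shRELB and 271.7 with shNeg without replicate 1.

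MiR-6803-3p, from the short PPP6R1 intron, was among the more abundant members, at 9.78, 11.2, 14.9 and 12.7 CPM in adherent shNeg and 14.7, 7.64, 5.13 and 9.12 CPM in spheroid shNeg. In spheroid shRELB it was at 1.58, 1.33, 1.39 and 0.86 CPM, or 3 to 4 counts per library, below all libraries of the other 5 groups. The log2 fold change against spheroid shNeg was -2.82 ± 0.52 (FDR 8.38e-05, edgeR's quasi-likelihood test), or -2.49 without replicate 1 (FDR 0.000269), and against adherent shRELB it was -2.71 ± 0.49 (FDR 3.53e-05). With shRELA in spheroids it was at 9.84, 2.1, 3.13 and 3.04 CPM, and the change of -0.99 ± 0.45 was not called (FDR 0.0969).

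MiR-6791-3p was at 25.7, 9.93, 7.69 and 9.12 CPM in spheroid shNeg and at 0, 3.99, 3.72 and 2.58 CPM with shRELB, without overlap. The log2 fold change was -2.27 ± 0.55 (FDR 0.00222, edgeR's quasi-likelihood test), and without shNeg replicate 1 it was -1.71 (FDR 0.0145). It was one of the 3 3p arms called higher in spheroid than in adherent shNeg, with a change of 3.19 ± 0.56 and adherent levels of 0.8 to 1.97 CPM. With shRELB, by contrast, spheroid and adherent levels differed by -0.02 ± 0.57.

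**Figure D5:**
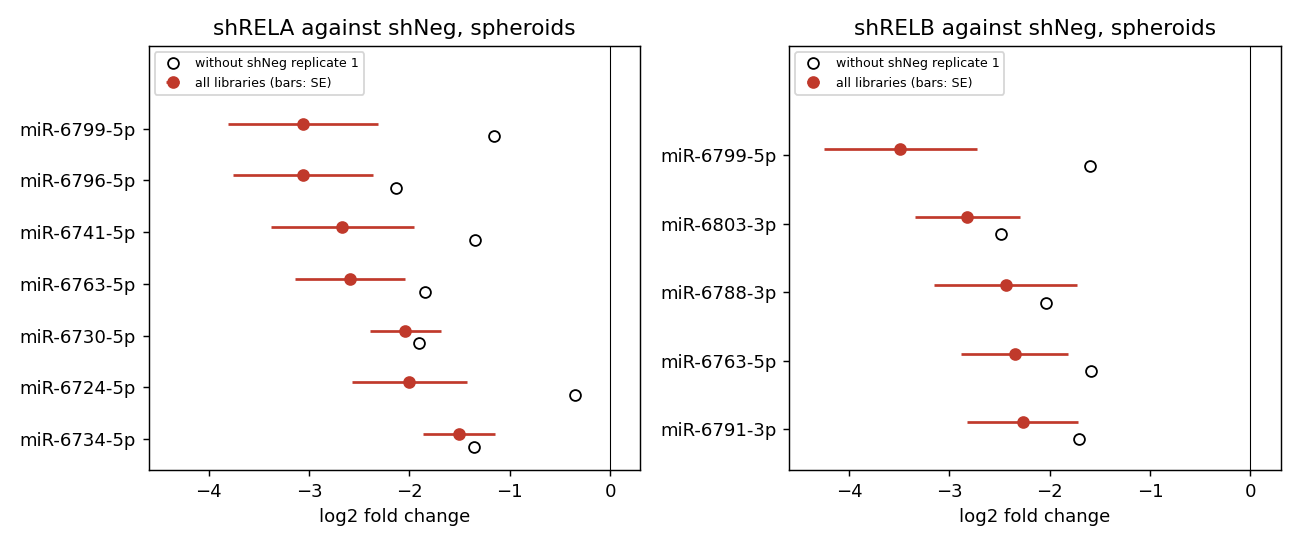
Log2 fold changes of the members called with shRELA (left, 7) or shRELB (right, 5) against shNeg in spheroids. Red points are all libraries with bars of 1 SE, and open points leave out shNeg replicate 1. Every open point lies nearer to 0 than its red point, for miR-6724-5p at -0.35.

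Whether a knockdown changed a member differently in spheroids and in adherent culture was tested directly, as an interaction. For shRELA, 3 members changed more negatively in spheroids than in adherent culture, as against 3.31% of all miRNAs tested. The difference was -3.61 ± 0.92 log2 units for miR-6763-5p (FDR 0.00622, edgeR's quasi-likelihood test), -2.16 ± 0.55 for miR-6730-5p (FDR 0.00622) and -2.16 ± 0.57 for miR-6734-5p (FDR 0.0078). Without spheroid shNeg replicate 1 the latter 2 were still called, at -2.02 and -1.99, and miR-6763-5p was not, at -2.86 (FDR 0.0164). For shRELB, 1 member was called, miR-6791-3p at -3.21 ± 0.78 (FDR 0.00394), as against 3.87%, and it was still called without that library, at -2.64 (FDR 0.00821). Of 25 or 26 alternative fits, miR-6763-5p and miR-6734-5p were called in 13 each, miR-6730-5p in 14 and miR-6791-3p in 21. None of these 4 differences was called in a fit of the 4 groups concerned alone, nor were those with shRELA when the replicate number was a block.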

How the data were processed

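OV90 small RNA libraries (24, in 6 groups of 4) were grouped by their labels, with shNeg taken from the sample titles. The RNA was made into libraries with a QIAseq miRNA kit, whose UMIs are not stated to have been collapsed. By the study's methods, Cutadapt removed the adapters and miRDeep2 mapped the reads to miRBase, and the submitters' processing notes name GRCh38. The values the authors deposited are estimated counts of each mature miRNA. Their table is named for both counts and CPM, and it was read as unscaled counts because the values are mostly whole and the library totals differ. Values that were not whole, on 84 miRNAs and on no member, were rounded. Near-identical sequences and hairpins with several copies could share reads.

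The members and lists were chosen with earlier results of these data known. Counts of the 905 miRNAs that reached 1 CPM in 4 or more libraries (99.98% or more of each library) were scaled by TMM and fitted to the 6 groups with edgeR 4.0.16 (quasi-likelihood test) in R 4.3.3, and FDRs were taken over all 905. A member was called at an FDR under 0.01 with a fold change over 2 in either direction. SEs are the log2 fold change over the root of F. Groups with 1 to 3 counts have a ratio with an exact 95% interval for counting error only. The alternatives used DESeq2 1.42.0 and limma 3.58.1 (log2(CPM + 1)), median-ratio factors, library totals, other filters, edgeR's likelihood ratio test, a block on replicate number, fits restricted to the compared groups, and leaving out each library. The arm and base content lists were added after seeing the data. The fits were tested on simulated data. Members named had the 10 highest means, up to 4 of the highest or lowest changes per comparison among called members without overlap, a call (up to 6) in a difference between cultures, or both arms of the 5 most abundant hairpins. Library totals were 959141 to 8283549. Raw reads were not analysed here.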

Additional observations from a re-analysis of the deposited data

Results flagged for a closer look

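Dixon's test at the 95% level marked 1 library as lying apart in 17 of 108 groups of 4 tested, where chance gives about 5%. Of these, 5 were spheroid shNeg replicate 1, with miR-6724-5p at 129.8 CPM, miR-6799-5p at 74.8, miR-6796-5p at 28.6, miR-6741-5p at 27.1 and miR-6791-3p at 25.7. Adherent shNeg replicate 2 had a summed member level of 89.8 CPM, below the other 3 at 116.5 to 121.9. MiR-6803-3p was at 9.84 CPM in spheroid shRELA replicate 1, above 2.1 to 3.13 in the others, and miR-6730-5p was at 2.68 CPM in adherent shRELB replicate 1.

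The rest rest on a few counts. MiR-6740-5p was at 0.267 CPM in adherent shNeg replicate 2 and at 0 in adherent shRELB replicate 3, miR-6799-5p at 0 in adherent shRELA replicate 1, miR-6741-5p at 0.717 CPM in adherent shNeg replicate 3, and miR-6779-5p at 0.166 and 0.991 CPM in replicate 1 of adherent shNeg and of adherent shRELA. MiR-6797-3p was at 0.574 CPM in spheroid shRELB replicate 4, and miR-6732-3p at 0.525 CPM in spheroid shRELA replicate 2 and 0.287 CPM in spheroid shRELB replicate 4, where the other libraries had no count.

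The knockdown changes that differed between the cultures, by the interaction term of edgeR's quasi-likelihood fit, were those of miR-6763-5p (-3.61 log2 units, FDR 0.00622), miR-6730-5p (-2.16, FDR 0.00622) and miR-6734-5p (-2.16, FDR 0.0078) with shRELA, and of miR-6791-3p (-3.21, FDR 0.00394) with shRELB.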

How the results depend on the processing

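The 57 called changes of named members kept their direction in all 1028 alternative fits and stayed called in 901, and 28 stayed called in every one. The number of members called moved more, and the cause was not tested. In some of the alternatives fewer miRNAs or samples entered. In spheroids, shRELA against shNeg gave 7 calls as reported, 11 with median-ratio factors or limma, 14 with library totals, DESeq2 or the likelihood ratio test, 13 without a filter, 3 with a mean of at least 10 CPM, 17 at an FDR of 0.05 and 1 with only the groups compared. For shRELB (5 calls) the numbers were 9 with library totals, 11 without a filter, with limma or with the likelihood ratio test, 12 with DESeq2, 2 at 10 CPM, 17 at an FDR of 0.05 and 0 with only the groups compared. In adherent culture shRELB gave 1 call in place of 0 without a filter, with a mean of at least 1 CPM, with DESeq2, the likelihood ratio test, an FDR of 0.05 or only the groups compared. Spheroid against adherent culture gave 35, 17 and 20 calls with shNeg, shRELA and shRELB. These became 3, 2 and 2 at 10 CPM and 53, 34 and 41 at an FDR of 0.05, with 20 for shNeg in only the groups compared, 9 for shRELA with limma, and 27 and 31 for the knockdowns with the likelihood ratio test. The shRELA difference between cultures (3 calls) gave 5 with the likelihood ratio test and 0 with only the groups compared. The shRELB difference (1 call) gave 3 with median-ratio factors or library totals, 2 without a filter, 5 with DESeq2, 4 with the likelihood ratio test, 6 at an FDR of 0.05 and 0 with only the groups compared.

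Leaving out 1 library at a time gave 0 to 0 and 0 to 1 calls for shRELA and shRELB in adherent culture, 3 to 11 and 1 to 11 in spheroids, 29 to 35, 11 to 25 and 11 to 31 for the cultures with shNeg, shRELA and shRELB, and 0 to 3 and 0 to 2 for the differences. In spheroids the low values, 3 and 1, came without shNeg replicate 1, and shRELB gave 8, 11 and 9 without shNeg replicates 2, 3 and 4, and shRELA 11 without replicate 3 or 4. The culture count with shRELB was 11 without adherent shRELB replicate 1 or spheroid shRELB replicate 4, 13 without adherent shRELB replicate 2 and 31 without spheroid shNeg replicate 1, and with shRELA it was 11 without adherent shRELA replicate 4. The 1 call of shRELB in adherent culture came without spheroid shNeg replicate 1. The shRELA difference gave 0 without replicate 1 or 2 of adherent shNeg or shRELA or replicate 3 of spheroid shRELA, and 1 without replicate 3 of either adherent group, replicate 2 of spheroid shNeg or replicate 1 or 4 of spheroid shRELA. The shRELB difference gave 0 without replicate 1 or 2 of adherent shNeg or replicate 2 of adherent shRELB, and 2 without replicate 3 of adherent shRELB or replicate 1, 3 or 4 of spheroid shNeg.

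With the replicate number as a block, shRELA in spheroids gave 4 calls, its difference between cultures 0, and the cultures 30, 15 and 17. Libraries with the same number were not treated as pairs in the main fit. Only 1 of 28 correlations of their deviations was over 0.1 (range -0.245 to 0.136). Such values cannot exclude a shared culture or preparation, since counting error also lowers them, and the labels do not say what the numbers stand for. At the smallest library total the mean number of members with a count would be 54.2, 51.4 and 60 in adherent shNeg, shRELA and shRELB and 71 and 73.8 in spheroid shRELA and shRELB. Depth limits all of this, since most members had few counts, and the adherent level of many 5p members is at or below the limit of 3 counts.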
